A study of Mus musculus with 23 samples.

Results

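The genes described here encode the subunits of the ionotropic and metabotropic receptors for glutamate and GABA, taken by gene symbol from the whole expression table. The symbols of 47 such genes were found, 26 for glutamate and 21 for GABA receptors, among 27178 genes in all. Of these, 42 (25 for glutamate and 17 for GABA receptors) reached normalized counts of at least 10 in no fewer than 5 of the 23 libraries, as did 16385 genes of the whole table. The normalized count is the number of reads assigned to a gene, divided by the authors' scaling factor for that library.

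All libraries came from polyadenylated RNA of virus-infected orbitofrontal cortex (OFC) of wild-type male C57BL/6J mice, with an age of 8 weeks in the labels. Mice had been injected on day 0 with an adeno-associated vector, AAV6, whose insert was driven by the promoter of Gfap, a gene of astrocytes. The insert was ZBTB7A, a zinc-finger transcription factor, for overexpression, or GFP, a fluorescent protein without a receptor function. Stressed mice went through a subthreshold social defeat stress on day 21, a shortened defeat protocol, and unstressed mice through the control condition. Behaviour was tested on days 22 to 27, and tissue was taken on day 28. The groups held 5 libraries of ZBTB7A stress, 8 of GFP stress, 5 of ZBTB7A control and 5 of GFP control. Libraries are called by their group and the number in their title. Each is treated as 1 replicate, but the labels do not say that each came from a separate mouse, so p-values measure the spread between these samples. The vector acts through a promoter of astrocytes while the tissue is bulk, and all 4 groups carried a vector, so no group shows uninjected cortex.

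Glutamate is the main excitatory transmitter of the cortex. It opens AMPA, NMDA and kainate receptors, which are tetramers of separate subunits, and it acts more slowly through metabotropic receptors coupled to G proteins. GABA, the main inhibitory transmitter, opens GABA-A receptors, which are pentamers of mostly alpha, beta and gamma or delta subunits, and activates GABA-B receptors, which are dimers coupled to G proteins. Which subunits a neuron makes sets how its receptors respond and where they sit, and the mix differs between cortex, striatum and other regions. Astrocytes also carry some of these receptors, among them the metabotropic receptor of Grm3.

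Depth was 12.5 to 51.9 M recovered reads per library, and normalized totals were 21.5 to 25.2 M. The level of Zbtb7a itself averaged 3744 ± 173 normalized counts in ZBTB7A stress and 3934 ± 251 in GFP stress (SD, n = 5 and 8), and 3716 ± 247 in ZBTB7A control against 3834 ± 629 in GFP control (SD, n = 5 each). The groups overlapped, so this row gave no check of the vector, and the labels do not say from which species the ZBTB7A insert was taken. Markers of cortical excitatory neurons were present in every library, and Slc17a7, the vesicular glutamate transporter of cortical neurons, ranged from 10938 to 57296 normalized counts. Libraries also differed in genes of the neighbouring striatum. Their striatal level is the mean of centred log2 values over 20 markers of medium spiny neurons, and it was highest in ZBTB7A control 6, at 1.98, and lowest in GFP stress 12, at -2.48. The 5 libraries farthest from its median of 0.18 were GFP stress 12, 20, 21 and 5 and ZBTB7A control 6. Drd1, a dopamine receptor of these neurons, spanned 273 to 3462 normalized counts over the 23 libraries. In bulk tissue, fewer cells of a type and less RNA per cell cannot be told apart.

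The receptor set was dominated by a few subunits. Counts are not corrected for length, so genes were compared as the mean normalized count over 23 libraries per kilobase of merged exons (GENCODE vM21, GRCm38). On this scale the 2 highest were Gabbr1, the ligand-binding GABA-B subunit, at 2484 per kilobase, and Gria1, an AMPA subunit, at 1885 per kilobase. Among AMPA subunits, Gria2, which makes these receptors impermeable to calcium, followed with 1081, Gria3 with 730 and Gria4 with 389 per kilobase. Grin1, the NMDA subunit that every NMDA receptor needs, stood at 1488 per kilobase. Its partners stood at 289 for Grin2c, 118 for Grin2b, 54.9 for Grin2d and 35.8 per kilobase for Grin2a. Grik5, a kainate subunit that works only in combination with others, stood at 1562 per kilobase, against 111 for Grik2, which can form channels alone. Merged exons came to 24.8 kb for Grin2b, 17.9 kb for Grin2a and 13.2 kb for Grik2. They came to 9.7 kb for Grin1, 5.0 kb for Grin2c, 6.7 kb for Grin2d, 5.2 kb for Grik5 and 15.5 kb for Gria2. A level per kilobase is lowered where part of the merged exons is not transcribed, and exon use was not tested.

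On the inhibitory side, Gabrb2, a beta subunit of synaptic receptors, reached 1116 per kilobase and Gabra3, an alpha subunit, 899 per kilobase. Gabra5 and Gabrd, subunits of receptors that lie largely outside synapses, came to 454 and 465, and Gabra4 came to 441. Gabra2 stood at 93.3 per kilobase, and mice of the C57BL/6J strain are known to carry an intronic deletion that lowers Gabra2. Gabbr2, the GABA-B subunit that couples to G proteins, stood at 1092 per kilobase. Among metabotropic glutamate receptors Grm3 stood at 585, Grm5 at 563, Grm2 at 332, Grm7 at 239, Grm4 at 118 and Grm8 at 50.7 per kilobase.

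Subunits differed in how much they varied between libraries, and the spread of all genes was not taken beside them. The highest of the 23 libraries was less than 2 times the lowest in 22 of the 42 genes and 2 to 5 times it in 17. The remaining 3, Gabre, Gabrq and Gabrr2, had the lowest counts per kilobase of all. Gabbr1 ranged from 17364 to 23444 normalized counts, Gria1 from 9623 to 13145 and Gria2 from 12245 to 18953. Grm2, a presynaptic inhibitory autoreceptor, ranged over 4.39 times, from 659 to 2893 normalized counts, and Gabbr2 over 3.10 times, from 3271 to 10143. The map of all subunits by library shows that a library high or low in 1 gene was often far in several.

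**Figure D1:**
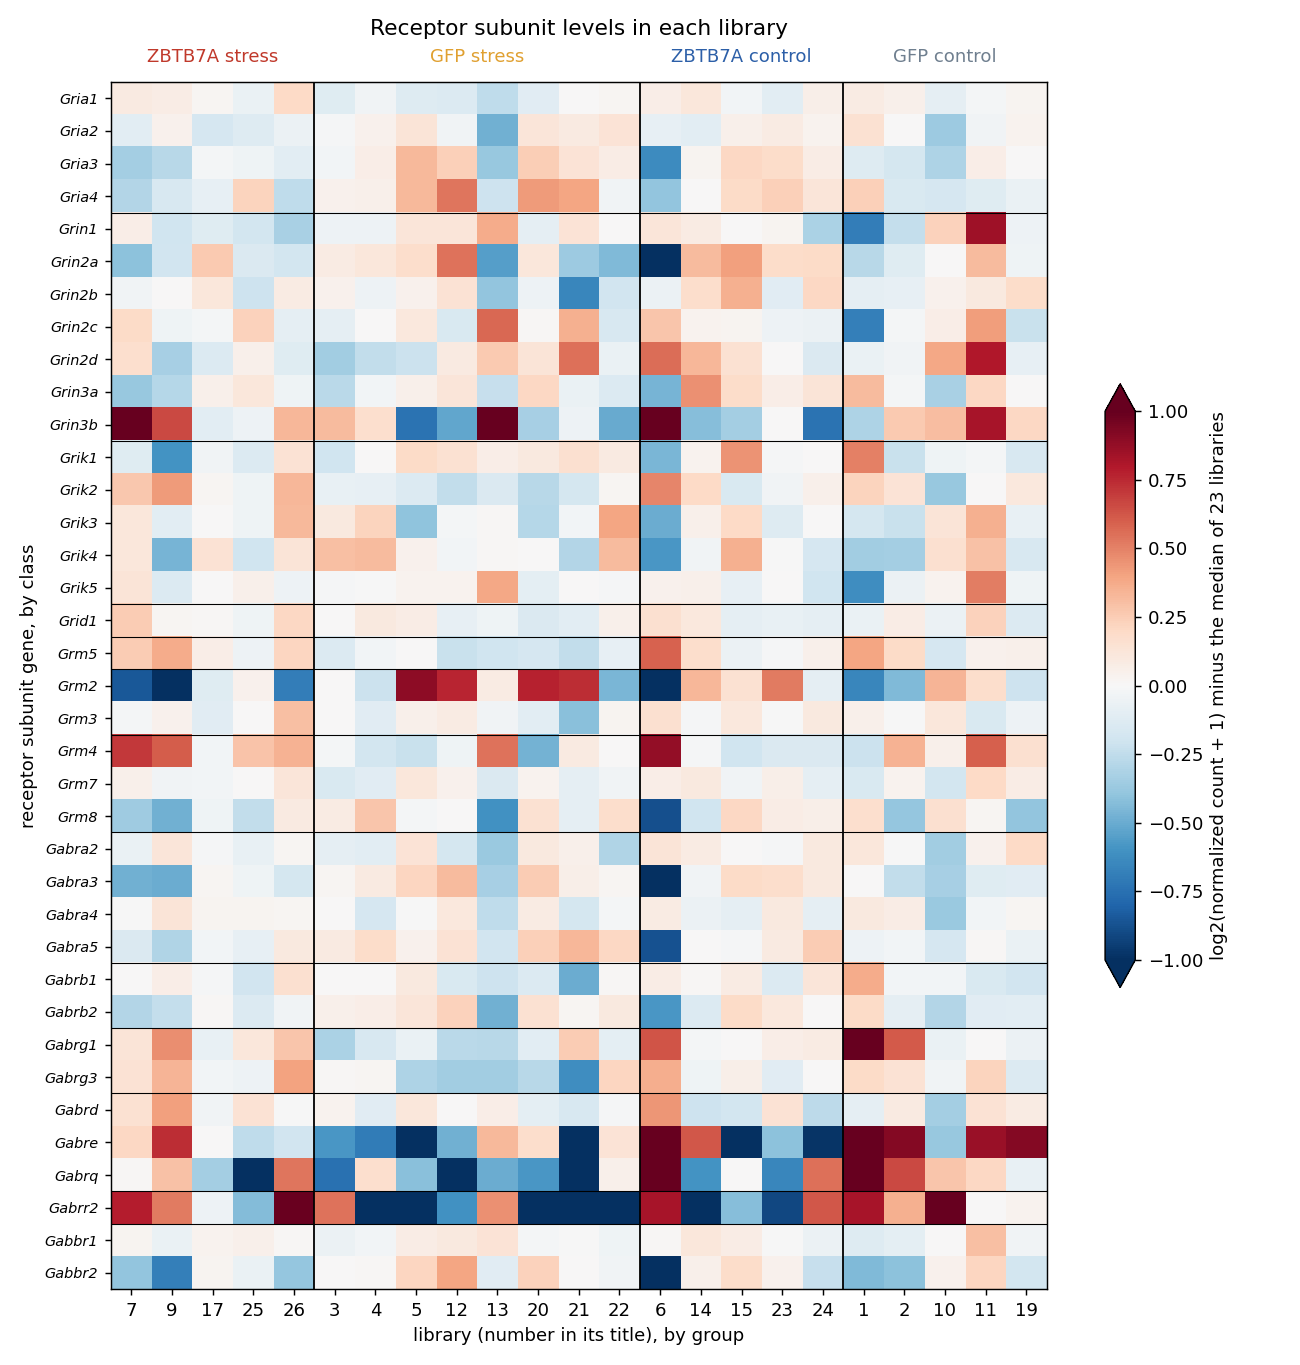
Level of receptor subunit genes (rows, by receptor class) in the 23 libraries (columns, by group, with the number in the title), as log2(normalized count + 1) minus the gene's median over all libraries. ZBTB7A control 6 is low in Grm2, Gabra3, Grin2a and Gabbr2 and high in Grm4 and Grin3b, GFP stress 5, 12, 20 and 21 are high in Grm2, and GFP control 1 is high in Gabrg1, Gabre and Gabrq.

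At the edge of the filter, Gabre was just inside, with 10 or more in exactly 5 libraries, a mean of 9.38 and a range of 0 to 71.2 normalized counts. Gabrr2 and Gabrq passed in 13 libraries each, with means of 13.4 and 16.7. The 5 genes outside it were Grm6, with 0 libraries at 10 or more and a mean of 0.32, Gabrp with 1 and 0.73, Gabra6 with 1 and 0.79, Gabrr1 with 0 and 2.85, and Gabrr3 with 0 and 3.94. Grm6 and the rho subunits are best known from the retina and Gabra6 from the cerebellum.

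Promoters of 4 subunits are shown because their levels moved in opposite directions with the striatal level described further on: Gria4 and Grm2 were lower, and Grik2 and Gabrg3 higher, in libraries with more of it. The sequences are those of RefSeq (GRCm38.p6), from 250 bases before to 50 bases after the transcription start. They lie at chr9:4796185-4796484 (Gria4, minus strand), chr9:106656060-106656359 (Grm2, minus strand), chr10:49788705-49789004 (Grik2, minus strand) and chr7:57387166-57387465 (Gabrg3, minus strand). Capitals mark the GC box, the letters GGGCGG on either strand, which is the site of SP1-type factors.
Gria4 promoter: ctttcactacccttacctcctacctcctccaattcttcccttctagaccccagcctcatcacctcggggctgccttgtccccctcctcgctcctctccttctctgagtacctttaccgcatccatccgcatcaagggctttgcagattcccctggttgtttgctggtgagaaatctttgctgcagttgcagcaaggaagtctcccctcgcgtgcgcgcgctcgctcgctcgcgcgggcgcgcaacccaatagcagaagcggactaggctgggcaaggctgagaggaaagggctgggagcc
Grm2 promoter: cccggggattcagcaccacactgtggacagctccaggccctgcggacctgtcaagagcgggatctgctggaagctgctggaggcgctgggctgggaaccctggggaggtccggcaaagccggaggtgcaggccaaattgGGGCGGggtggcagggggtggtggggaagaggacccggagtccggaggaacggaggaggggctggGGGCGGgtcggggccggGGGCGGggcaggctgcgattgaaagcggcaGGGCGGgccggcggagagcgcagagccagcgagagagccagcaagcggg
Grik2 promoter: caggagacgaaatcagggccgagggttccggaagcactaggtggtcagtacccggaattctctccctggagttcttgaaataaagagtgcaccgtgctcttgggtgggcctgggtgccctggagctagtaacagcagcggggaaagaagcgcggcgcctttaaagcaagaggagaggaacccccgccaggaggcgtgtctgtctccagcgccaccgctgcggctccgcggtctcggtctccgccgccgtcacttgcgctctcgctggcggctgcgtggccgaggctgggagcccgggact
Gabrg3 promoter: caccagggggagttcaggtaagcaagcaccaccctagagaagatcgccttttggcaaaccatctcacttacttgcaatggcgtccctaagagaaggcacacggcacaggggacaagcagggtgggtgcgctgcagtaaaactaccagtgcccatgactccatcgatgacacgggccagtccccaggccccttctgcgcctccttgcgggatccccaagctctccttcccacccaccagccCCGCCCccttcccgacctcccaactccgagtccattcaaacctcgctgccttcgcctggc
The GC box occurred 4 times in the Grm2 window, once in that of Gabrg3 and not in those of Gria4 and Grik2, so within these 4 it did not separate the directions. RefSeq windows were found for 27 of the 42 genes, 34 windows in all. Of these 52.9% held a GC box, against 35.7% of all 32851 windows in the table, and their median GC content was 61%, against 52.7%. The subunit windows are those of genes that passed the filter, while all windows were taken without it. The shares are thus not a comparison among expressed genes. The TATA box (TATAAA) was in 11.8% of the subunit windows and 13.6% of all. The cyclic AMP response element (TGACGTCA) was in 0 of 34, against 1.79% of all. A match describes these letters, not the binding of a factor.

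No receptor subunit passed the test in any comparison of vector or stress. Each gene was fitted with limma on log2(normalized count + 1) with 4 group means, and called at a Benjamini-Hochberg adjusted p under 0.05 over all 16385 genes. The fit called 0 of 42 subunits, and 0% of all genes, in each of 6 contrasts. These compared the vectors with stress, without it and on average, compared stress with control under each vector, and took the interaction. The 2 groups overlapped for all 42 subunits in each of the 4 comparisons of 2 groups, where the share of all genes without overlap was 1% for the vector with stress, 0.226% for the vector without stress, 0.421% for stress under ZBTB7A and 0.372% for stress under GFP. The values below are given for the subunits of smallest p and are not calls.

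With stress, ZBTB7A against GFP gave the most subunits with an unadjusted p under 0.05: 10 of 42, or 23.8%, beside 16.1% of all genes (limma). Of the 42 log2 fold changes, 22 were above and 20 below 0, with a median of 0.01, equal to the 0.01 of all genes. Of all genes 9.13% had such a p with a positive and 6.95% with a negative value. The 6 subunits with a positive value were the kainate subunit Grik2, the metabotropic receptors Grm5 and Grm4, the AMPA subunit Gria1 and the GABA-A subunits Gabrg3 and Gabrr2. Those with a negative value included Grm2, Gria4 and Gabbr2.

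Grik2 (Entrez 14806) had 1726, 1928, 1454, 1389 and 1804 normalized counts in ZBTB7A stress, against a lowest of 1186, a median of 1302 and a highest of 1452 in GFP stress. The groups overlapped in the 1389 of ZBTB7A stress 25 alone, which lay below the highest GFP library. Its log2 fold change was 0.34 ± 0.10 (SE), or 1.27-fold (95% interval 1.09 to 1.47), and the adjusted p was 0.183 (limma).

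Grm5 (Entrez 108071), a postsynaptic receptor coupled to phospholipase C, had 6589, 7158, 5786, 5340 and 6420 normalized counts in ZBTB7A stress, against 4678, 4984 and 5535 as the lowest, median and highest in GFP stress. Here too ZBTB7A stress 25 was the lowest of its group and the single library inside the GFP range. The log2 fold change was 0.30 ± 0.10 (SE; adjusted p = 0.195, limma).

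Grm2 (Entrez 108068) had 865, 761, 1434, 1601 and 966 normalized counts in ZBTB7A stress, against a lowest of 1134, a median of 2120 and a highest of 2893 in GFP stress. The GFP libraries fell into 4 of 2593 to 2893 and 4 of 1134 to 1646, and the 4 higher ones were GFP stress 5, 12, 20 and 21. The log2 fold change was -0.85 ± 0.29, or 0.554-fold (95% interval 0.368 to 0.836; adjusted p = 0.205, limma).

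Gria4 (Entrez 14802), an AMPA subunit rich in fast-spiking interneurons, had 1924, 2114, 2228, 2754 and 1983 normalized counts in ZBTB7A stress, against 2041, 2695 and 3418 as the lowest, median and highest in GFP stress. Its log2 fold change was -0.30 ± 0.12 (adjusted p = 0.265, limma). Gria1 (Entrez 14799), its more abundant relative, had the smallest error of the 10, with 12212, 12104, 11632, 10939 and 13145 normalized counts in ZBTB7A stress and 9623, 10569 and 11646 as the lowest, median and highest in GFP stress. Its log2 fold change was 0.16 ± 0.06 (adjusted p = 0.213, limma). The 2 AMPA subunits thus differed in sign within 1 family.

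Grm4, a presynaptic receptor that striatal projection neurons are known to make, differed by 0.42 ± 0.18 on the log2 scale, and its values were 1023, 952, 613, 760 and 797 in ZBTB7A stress against 450, 611 and 909 as the lowest, median and highest in GFP stress. Gabbr2 differed by -0.39 ± 0.18, and its GABA-B partner Gabbr1 by -0.01 ± 0.06. Gabrg3 differed by 0.37 ± 0.12, with 240, 275, 213, 210 and 286 normalized counts in ZBTB7A stress against 140, 177 and 252 in GFP stress. Gabrr2 differed by 1.40 ± 0.47 on counts of 8.89 to 25.5 in ZBTB7A stress and 1.54 to 18.4 in GFP stress, where few reads stand behind a value. The adjusted p of Grm4, Gabbr2, Gabrg3 and Gabrr2 lay between 0.197 and 0.301 (limma).

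**Figure D2:**
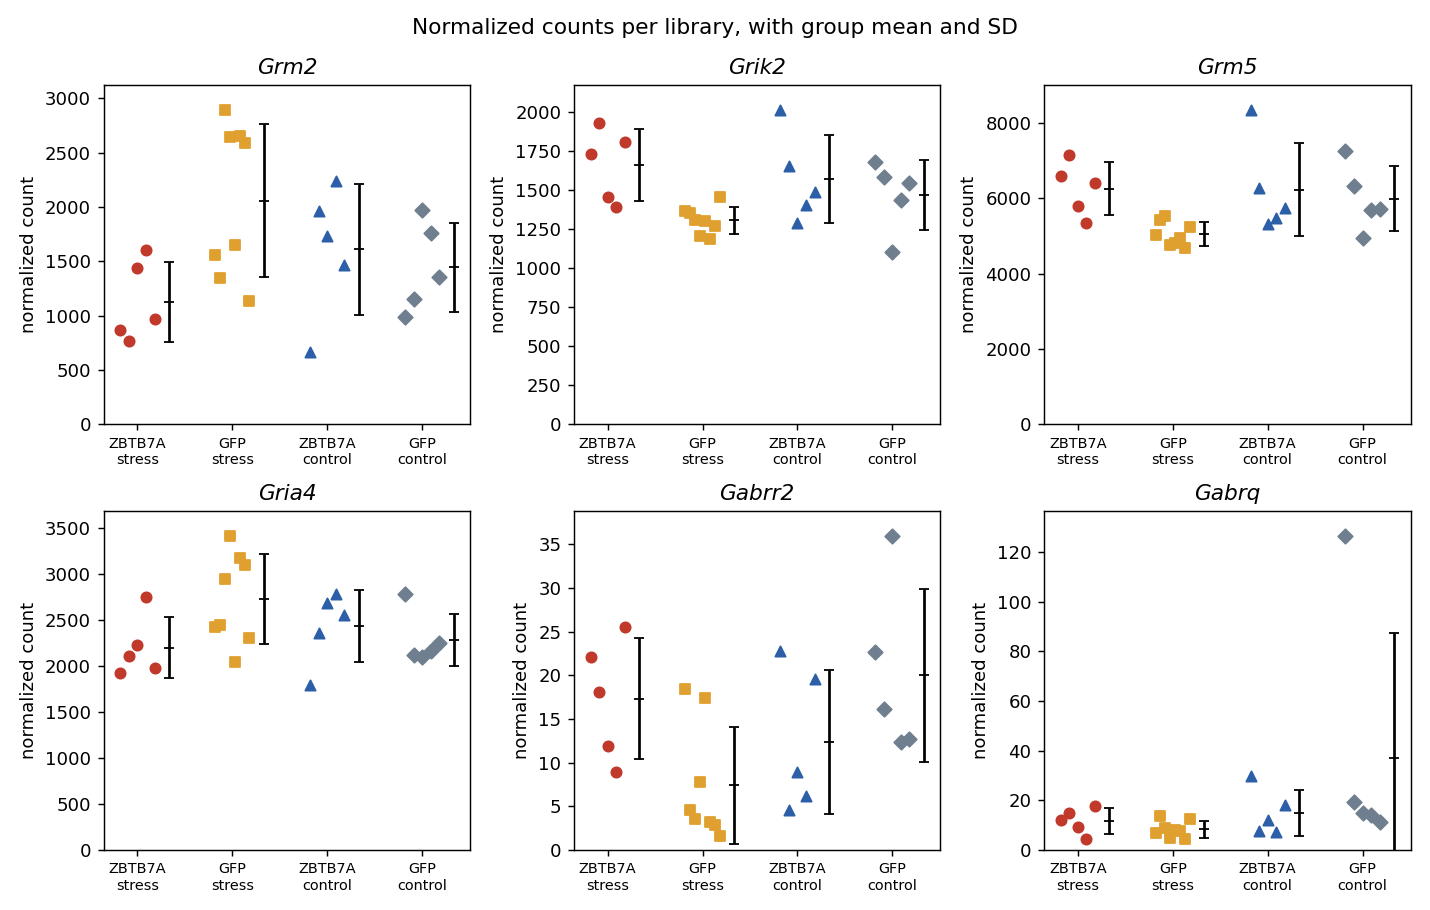
Normalized counts of 6 receptor subunits in each library, by group, with the group mean and SD beside the points; the lower bar of Gabrq in GFP control ends at the axis. Grm2 is split in GFP stress, with 4 libraries of 2593 or more, Gria4 ranges from 1799 to 3418, and Gabrq reaches 127 in GFP control 1 while no other library exceeds 29.7.

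The striatal level moved with this comparison. All 20 striatal markers lay above 0 in ZBTB7A stress against GFP stress, with a median log2 fold change of 1.76 and an unadjusted p under 0.05 for 20 of 20 (limma), and 0 of 20 passed after adjustment. Their summed level was 61199 to 154980 normalized counts in ZBTB7A stress and 15676 to 90190 in GFP stress. Of the 20 markers 0 were at 0 in a ZBTB7A stress library and at most 1 in a GFP stress library. The striatal level averaged 0.95 in ZBTB7A stress and -0.96 in GFP stress, so a fit with it as a covariate cannot fully separate it from this comparison. A p can rise there through a wider error as well as through a smaller difference. With the striatal level as a covariate, 0 of 42 subunits kept an unadjusted p under 0.05, beside 3.47% of all genes. In that fit the log2 fold change was -0.10 for Grm2, 0.11 for Grik2, 0.15 for Grm5, 0.02 for Grm4 and 0.13 for Gria1, and Gria4 turned to 0.04. Without the 5 far libraries 4 of 42 had an unadjusted p under 0.05, beside 6.19% of all genes. In both fits 0 subunits passed after adjustment. Without ZBTB7A control 6, which belongs to neither group but to the pooled estimate of the spread, 15 of 42 had an unadjusted p under 0.05, beside 20.4% of all genes, and 0 passed.

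Within the 3 runs of title numbers, which pass through the groups in order 3 times, 7 of the 8 subunits of smallest p had differences of 1 sign in every run. The exception was Grm4, with 0.80, -0.27 and 0.44. Grm2 differed by -1.17, -0.54 and -0.67 and Grik2 by 0.44, 0.22 and 0.29 in the runs. The 8 were chosen by p in these same libraries, so their shared signs are not independent support. Run 2 held 1 ZBTB7A stress library and 2 of GFP stress, and the share of all genes with 1 sign was not taken.

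Without stress, ZBTB7A control and GFP control were closer. An unadjusted p under 0.05 was reached by 1 of 42 subunits, beside 1.73% of all genes (limma). It was Gabre, the epsilon subunit of GABA-A receptors in subcortical nuclei, with 27.98, 9.03, 0, 3.89 and 2.31 normalized counts in ZBTB7A control and 71.2, 11.3, 3.998, 10.8 and 11.3 in GFP control. Its log2 fold change was -1.42 ± 0.69 (adjusted p = 1.00, limma). It was -0.81 without ZBTB7A control 15, -0.84 without GFP control 1, -2.02 without ZBTB7A control 6 and -0.70 with the striatal, olfactory bulb and choroid levels as covariates. The theta subunit Gabrq differed by -0.77 ± 0.52, Gabrr2 by -0.77 ± 0.53 and Gabrg1 by -0.21 ± 0.20. Grm3, Grin2c and Grin3b had log2 differences of 0.08, 0.13 and -0.29. Without GFP control 1, Gabrq differed by -0.16, Gabrg1 by 0.03 and Grin2c by -0.01. The differences of Gabre and Grm3 had 1 sign in each of the 3 number runs, and those of Gabrq, Gabrr2, Gabrg1, Grin2c and Grin3b did not.

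Stress under GFP gave an unadjusted p under 0.05 for 7 of 42 subunits, 16.7%, beside 11.2% of all genes (limma), and every one of these values was negative. Among all genes 7.96% had such a p with a negative value and 3.27% with a positive one. They included the GABA-A subunits Gabrr2, Gabrq, Gabrg1, Gabre and Gabrg3 and the metabotropic glutamate receptor Grm5.

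Gabrq (Entrez 57249) had 4.30, 7.89 and 13.5 normalized counts as the lowest, median and highest in GFP stress, against 127, 19.4, 14.7, 13.9 and 11.3 in GFP control. GFP control 1 was far above all other libraries. The log2 fold change was -1.44 ± 0.47 (adjusted p = 0.326, limma) and -0.83 without GFP control 1. Gabrr2 had 1.54, 3.99 and 18.4 normalized counts in GFP stress, against 22.7, 16.1, 36.0, 12.4 and 12.7 in GFP control, a log2 fold change of -1.58 ± 0.47. Gabre differed by -1.63 ± 0.62, and by -1.05 without GFP control 1.

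Gabrg1, a gamma subunit of subcortical neurons and glia, had 361, 410 and 536 normalized counts as the lowest, median and highest in GFP stress, against 1129, 688, 429, 452 and 432 in GFP control. It differed by -0.49 ± 0.18 on the log2 scale, and by -0.25 without GFP control 1. Grm5 differed by -0.24 ± 0.10 and Gabrg3 by -0.29 ± 0.12 (adjusted p = 0.407 and 0.411, limma). Gria4 differed by 0.25 ± 0.12, without an unadjusted p under 0.05. The 7 subunits named with values here, Gria4 among them, are thus not the same set as the 7 with such a p. They too were chosen by p in the same libraries, and 6 of them had 1 sign in every number run. Gabrg1 did not. Run 3 held 1 GFP control library.

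GFP control 1, which held the highest Gabre, Gabrq and Gabrg1, was also highest in markers of septal and other subcortical neurons and of choroid plexus and ependyma. Its level on the subcortical list, over the 8 of 13 markers tested, was 1.96, and ZBTB7A control 6, with the second highest Gabre, Gabrq and Gabrg1, had 1.87. GFP control 10 had the second highest choroid level, 2.19, and a subcortical level of 1.03, while its Gabre and Gabrg1, 3.998 and 429 normalized counts, were the lowest of GFP control. The 13 listed subcortical markers summed to 1161 to 1918 normalized counts in GFP stress and 1978 to 7741 in GFP control, with up to 5 of the 13 listed markers at 0 in a GFP stress library and up to 2 in a GFP control library. The choroid and ependymal list summed to 4844 to 6103 in GFP stress and 5724 to 19858 in GFP control, and at most 1 of its 12 markers was at 0. Of those 12, 11 lay below 0 in stress under GFP, with a median log2 fold change of -2.14, and of the 20 striatal markers 20 did, with a median of -1.30. With the striatal level as a covariate 5 of 42 subunits had an unadjusted p under 0.05 in this comparison, beside 5.54% of all genes, and Gria4 turned to -0.01. The subcortical level entered no fit, and the choroid level was not tested singly. The striatal and choroid levels averaged 0.47 and 1.30 in GFP control and -0.96 and -0.79 in GFP stress. Fits with them as covariates therefore cannot fully separate them from this comparison. With the striatal, olfactory bulb and choroid levels together as covariates, 6 of 42 had such a p, beside 8.47% of all genes. Not 1 of the 7 subunits listed next did. Gabrr2 then differed by -0.05, Gabrq by -0.09, Gabre by -0.15, Gabrg1 by -0.10, Grm5 by -0.01, Gabrg3 by -0.09 and Gria4 by -0.04.

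Stress under ZBTB7A gave an unadjusted p under 0.05 for 0 of 42 subunits, beside 1.66% of all genes (limma), and the smallest adjusted p was 1.00. Among those of smallest p were Grm4 with 0.31 ± 0.20, Grm2 with -0.46 ± 0.32, Grin2d with -0.25 ± 0.18, Grin3a with -0.18 ± 0.14, Gabrd with 0.15 ± 0.12, Grin3b with 0.43 ± 0.36 and Grid1 with 0.09 ± 0.07 on the log2 scale. ZBTB7A control 6 bore on this comparison. Grm2 was at 659 normalized counts there and at 1461 to 2239 in the other 4 ZBTB7A control libraries. Without that library 10 of 42 subunits had an unadjusted p under 0.05, beside 9.70% of all genes, and 0 passed after adjustment. Its removal moved Grm2 to -0.76, Grm4 to 0.51 and Grin3b to 0.78. Of the 7 named subunits, 0 had 1 sign in every number run.

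Averaged over stress, ZBTB7A against GFP gave an unadjusted p under 0.05 for 2 of 42 subunits, beside 6.07% of all genes (limma). Grik2 differed by 0.22 ± 0.08 and Grm5 by 0.18 ± 0.07 on the log2 scale (adjusted p = 0.767 for both, limma), followed by Gria1 with 0.09 ± 0.04 and Gabrg3 with 0.17 ± 0.09. The interaction, which is the vector effect with stress minus that without, gave such a p for 5 of 42, beside 7.42% of all genes. They were Gabrr2 with 2.17 ± 0.71, Grm2 with -0.94 ± 0.43, Gabrg3 with 0.39 ± 0.18, Gabre with 1.99 ± 0.92 and Gria4 with -0.39 ± 0.19 (adjusted p = 0.668 for each, limma). Without ZBTB7A control 6 the interaction gave 17 of 42 at an unadjusted p under 0.05, beside 20.8% of all genes, and 79 genes but 0 subunits passed after adjustment. With the striatal level as a covariate it gave 0 of 42, beside 2.08% of all genes, and Grm2 differed by -0.05.

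**Figure D3:**
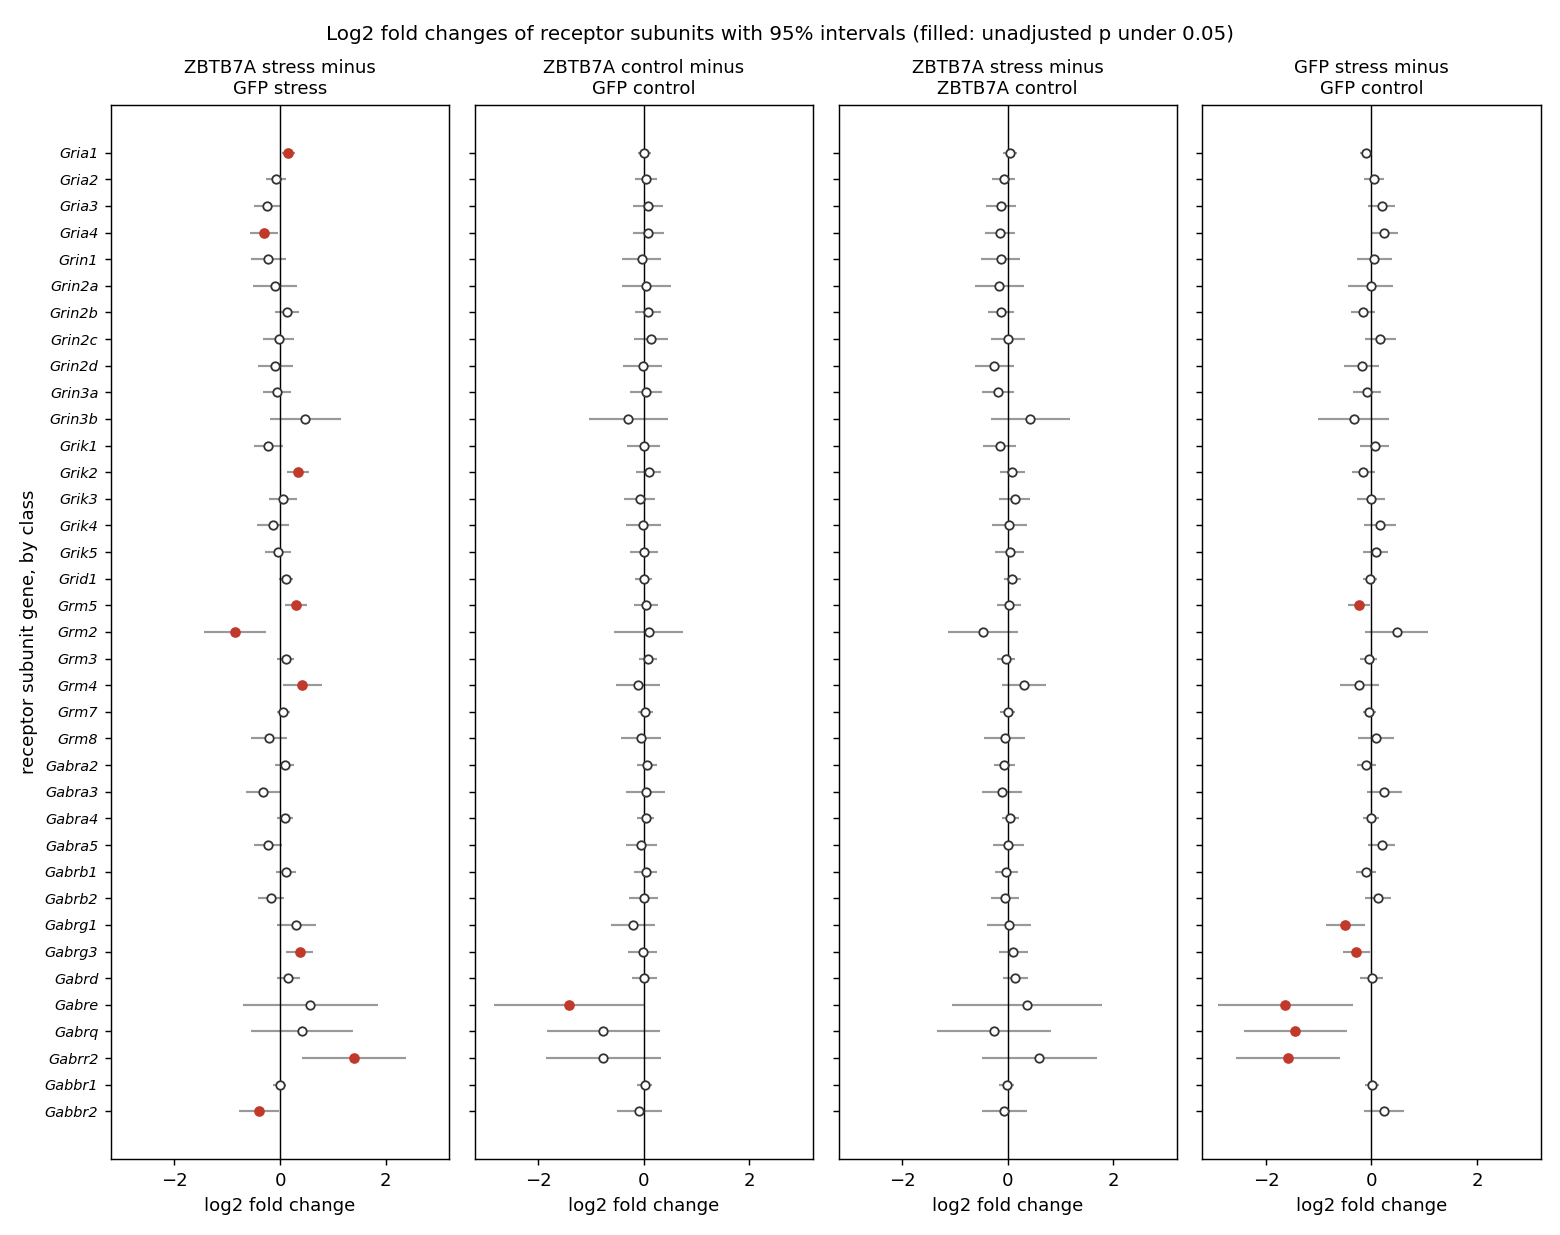
Log2 fold changes of receptor subunits (rows, by class) in 4 comparisons (panels), with 95% intervals from limma; filled points have an unadjusted p under 0.05, and 0 passed after adjustment. The panel of ZBTB7A stress minus GFP stress has 9 filled points on both sides of 0, that of GFP stress minus GFP control 6 on the negative side, that of ZBTB7A control minus GFP control 1 and that of ZBTB7A stress minus ZBTB7A control 0.

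Part of a panel of major synaptic subunits was described in all groups whatever its values. These 8 are Gria1, Gria2, Grin1, Grin2a, Grin2b, Grm5, Gabrb2 and Gabbr1. Their log2 fold changes lay between -0.04 and 0.08 for the vector without stress and between -0.22 and 0.30 with stress. For stress they lay between -0.16 and 0.04 under ZBTB7A and -0.24 and 0.12 under GFP. An unadjusted p under 0.05 was reached by 2 of the 8 for the vector with stress, beside 16.1% of all genes (limma). For stress under GFP 1 of the 8 reached it, beside 11.2%. It was reached by 0 of the 8 for the vector without stress and for stress under ZBTB7A. Grin1 averaged 12854 ± 1309 normalized counts in ZBTB7A stress and 15000.0 ± 1634 in GFP stress (SD, n = 5 and 8), and 14141 ± 1596 in ZBTB7A control against 15394 ± 6408 in GFP control (SD, n = 5 each). The wide spread of GFP control came from the 8809 of GFP control 1 and the 25656 of GFP control 11. Gabbr1 averaged 19172 ± 611 in ZBTB7A stress and 19302 ± 979 in GFP stress, and 19411 ± 925 in ZBTB7A control against 19236 ± 2442 in GFP control. Gria2 averaged 16109 ± 948 in ZBTB7A stress and 17188 ± 2156 in GFP stress, and 17005 ± 990 in ZBTB7A control against 16691 ± 2095 in GFP control.

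Grin2b and Grin2a, the NMDA subunits that set receptor kinetics, averaged 2934 ± 252 and 594 ± 108 normalized counts in ZBTB7A stress, against 2714 ± 459 and 645 ± 166 in GFP stress (SD). Without stress they averaged 3207 ± 433 and 691 ± 212 in ZBTB7A control, against 3015 ± 245 and 640 ± 101 in GFP control. Gabrb2 averaged 6659 ± 608 in ZBTB7A stress and 7536 ± 1000.3 in GFP stress, and 7001 ± 1347 in ZBTB7A control against 6931 ± 866 in GFP control. For each of these genes the group ranges overlapped in all 4 comparisons.

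Many subunits varied with the striatal level of the library. In a limma fit of each gene on that level beside the 4 group means, 15 of 42 subunits, 35.7%, passed at an adjusted p under 0.05, beside 16.7% of all genes. The receptor genes are not among the 20 markers that define the level. The far libraries also differed in the level of 12 oligodendrocyte and myelin markers. It was 0.91 in ZBTB7A control 6 and -1.32, -0.71, -1.18 and -0.66 in GFP stress 5, 12, 20 and 21. GFP control 10 had 1.18 at a striatal level of -0.43. This fit held no other tissue level, so the part of other tissues in the slopes was not tested. Libraries with a higher level had less of 11 subunits and more of 4. Among all genes 9.45% were lower and 7.27% higher. The lower ones came from most families and included Gria4 and Gria3 of the AMPA, Grin2a and Grin3a of the NMDA and Grik1 of the kainate subunits, Grm2, the GABA-A subunits Gabra3 and Gabrb2, and Gabbr2. The higher ones were Grm4, Grin3b, Grik2 and Gabrg3.

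The steepest fall was that of Grm2, by 0.40 ± 0.07 on the log2 scale per unit of striatal level (adjusted p = 0.000303, limma). Gria4 fell by 0.18 ± 0.03 (adjusted p = 0.000116, limma), Gabra3 by 0.20 ± 0.04 and Gria3 by 0.15 ± 0.03. Gabbr2 and Grin2a fell by 0.21 ± 0.05 and 0.22 ± 0.06, while Grik1, Grin3a and Gabrb2 each fell by 0.13. In the other direction Grin3b, an NMDA subunit at 15.6 to 69.9 normalized counts, rose by 0.37 ± 0.09 (adjusted p = 0.00861, limma), Grm4 by 0.21 ± 0.05 (adjusted p = 0.00621, limma), Gabrg3 by 0.13 ± 0.04 and Grik2 by 0.12 ± 0.03. Gabrd and Grm5 had slopes of 0.09 ± 0.03 and 0.08 ± 0.03 that did not pass (adjusted p = 0.057 and 0.085, limma). Estimates within 0.02 of 0 were found for Gabbr1, Gabra4, Grm7, Gria1, Grin2d, Grik4 and Grm3. Their SE ran from 0.02 for Gria1 to 0.06 for Grin2d and Grik4, so a flat slope was not shown for Grin2d and Grik4.

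**Figure D4:**
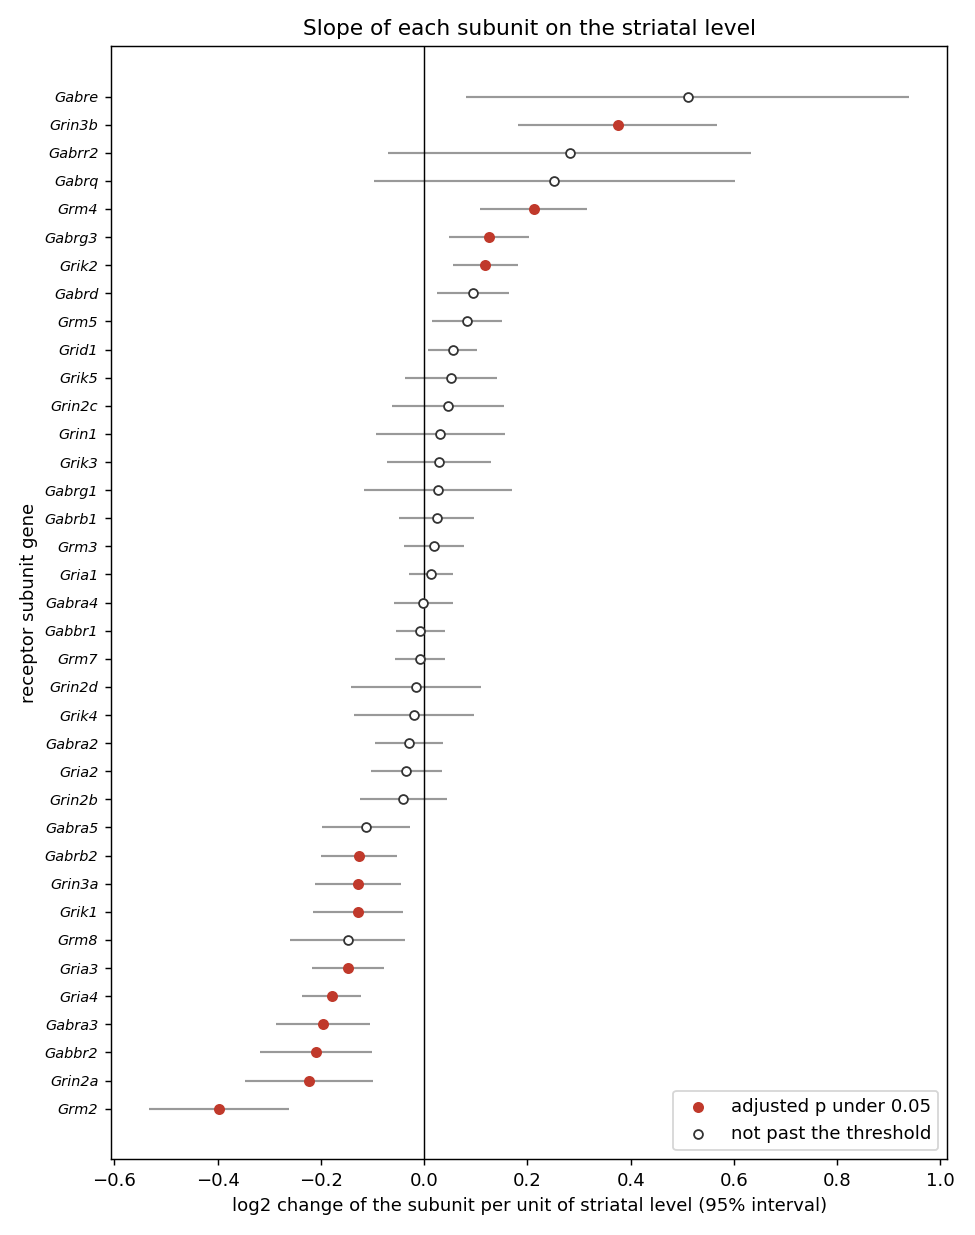
Slope of receptor subunits on the striatal level, as log2 change per unit of level within groups, with 95% intervals from limma. Filled points passed at an adjusted p under 0.05: 9 lie left of 0, ending at Grm2 with -0.40, and 4 lie right of 0, with Grin3b highest at 0.37.

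How many subunits passed depended on the libraries at the ends of the level. Without ZBTB7A control 6, the library with the highest level, 5 of 42 subunits passed, beside 6.02% of all genes. Each of them was lower, and they included Gria4, Grm2 and Gabra3, with slopes of -0.17, -0.34 and -0.12. Without the 5 far libraries 0 of 42 passed, beside 1.25% of all genes, with a smallest adjusted p of 0.0559. That was Grm4, with a slope of 0.37. Grin3b had 0.40, Grik2 0.24, Gabrd 0.21 and Grm5 0.13 there, and Grm2 -0.29, Gabra3 -0.18, Gria4 -0.13, Gria3 -0.08 and Gabrg3 0.05. Leaving out any other library gave 14 to 17. In ZBTB7A control 6, Grm4 was at 1147 normalized counts, against 545 to 619 in the other 4 of its group. Gria4 was lowest of all 23 libraries there, at 1799, and highest in GFP stress 12, at 3418, which had the lowest striatal level. Of 16 markers of cortical excitatory neurons 2 rose and 5 fell with the level, with a median slope of -0.18, beside -0.00 for all genes. Without ZBTB7A control 6, 2 of these markers rose and 2 fell, with a median of -0.06. Without the 5 far libraries 1 rose and 0 fell, with a median of -0.16.

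**Figure D5:**
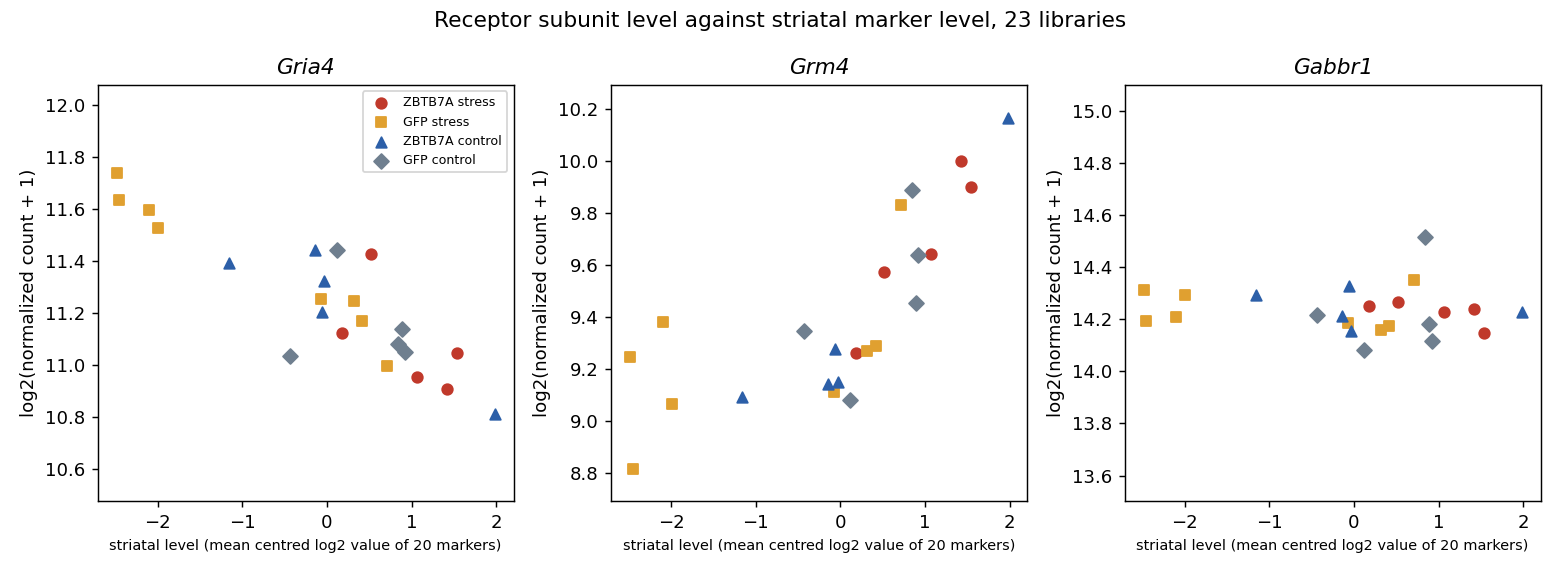
Level of Gria4, Grm4 and Gabbr1 (y axis, log2(normalized count + 1), each panel spanning the same width) against the striatal level (x axis) in the 23 libraries, with symbols by group. Gria4 descends from 3418 normalized counts in GFP stress 12 to 1799 in ZBTB7A control 6, Grm4 is highest in ZBTB7A control 6 with 1147, and Gabbr1 stays between 17364 and 23444.

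GABA-A genes lie in clusters, and their slopes were set beside their order in RefSeq (GRCm38.p6). On chromosome 5 Gabrg1, Gabra2, Gabra4 and Gabrb1 lie together, with another gene between the middle pair, and 0 of 4 passed, with slopes of 0.03, -0.03, -0.00 and 0.02. On chromosome 7 Gabrg3 and Gabra5 are neighbours among protein-coding genes, with slopes of 0.13, which passed, and -0.11, which did not (adjusted p = 0.0639, limma). On the X chromosome Gabra3 passed with -0.20 next to Gabrq, with 0.25 ± 0.17, and near Gabre, with 0.51 ± 0.21, which did not pass.

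Of the genes that work with these receptors, 0 passed in any of the 6 contrasts. They were given in 4 lists. Of 25 auxiliary subunits of glutamate receptors, such as the TARP proteins that traffic AMPA receptors, 9 lay above and 16 below 0 for ZBTB7A stress against GFP stress, with a median log2 fold change of -0.19, beside 0.01 for all genes. Cacng2, the TARP stargazin, differed by -0.27 ± 0.08 and Olfm2 by -0.61 ± 0.21, both short of the threshold (adjusted p = 0.183 and 0.206, limma). Of 26 scaffold and trafficking genes of the postsynaptic density 8 lay above and 18 below 0, with a median of -0.09. The 23 matched genes of 24 for GABA receptor auxiliary and scaffold proteins had a median of 0.03, and the 14 genes of transmitter synthesis and loading one of 0.06. In the last list Gad2 and Abat, which make and break down GABA, differed by 0.70 ± 0.20 and 0.41 ± 0.12 (adjusted p = 0.183 for both, limma).

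For stress under GFP the medians of the 4 lists were 0.13, 0.11, -0.01 and -0.13, beside -0.01 for all genes, and for the vector without stress -0.03, 0.04, -0.01 and -0.09, also beside -0.01. Under ZBTB7A, stress gave medians of 0.06, -0.00, 0.03 and 0.04, beside 0.01. With the striatal level, 5 auxiliary genes of glutamate receptors rose and 9 fell, 1 and 6 scaffold genes did, 1 and 1 genes of the GABA receptor list and 4 and 2 of the synthesis list, beside 7.27% of all genes that rose and 9.45% that fell. Without ZBTB7A control 6 these counts were 2 and 3 of 25, 0 and 1 of 26, 1 and 0 of 23 and 3 and 1 of 14, beside 6.02% of all genes in either direction. Without the 5 far libraries 1 auxiliary gene of glutamate receptors rose and no other gene of the 4 lists passed, beside 1.25%. Cacng4, another TARP, rose by 0.43 ± 0.06 and Cbln2, a synaptic organizer that binds delta receptors, fell by 0.39 ± 0.08 per unit. Kctd8, an auxiliary subunit of GABA-B receptors, rose by 0.28 ± 0.05, and Dlgap1, a scaffold protein of the postsynaptic density, fell by 0.18 ± 0.04 (adjusted p under 0.05 for each, limma).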

How the data were processed

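Polyadenylated RNA of 23 OFC libraries was sequenced with TruSeq RNA v2 libraries, per the labels. Tools in the submitters' processing notes are DESeq2 2.11.40.6, featureCounts 2.0.1 and HISAT2 2.1.0. They list the builds mm9 and mm10 but give neither a role, so no gene coordinates are taken from the files. The deposited values are a signal: the authors' read counts divided by 1 size factor per library, with no length correction. Divided by the value of 1 read, 100% of values came within 0.02 of a whole number in every library, which recovered the reads. Of 27606 rows 428 were repeats and were removed. Genes with a value of 10 or more in at least 5 libraries, 16385 in all, were fitted with limma 3.58.1 (R 4.3.3; log2 of the value plus 1, trended and robust empirical Bayes, 4 group means, two-sided, Benjamini-Hochberg over all genes). Alternatives were DESeq2 1.42.0 and edgeR 4.0.16 on those reads, TMM scaling, adding 5 in place of 1, dropping the filter, a mean of at least 50, no robust option, an adjusted p under 0.1, number run or striatal level as a covariate, and leaving out libraries. The fit with 3 tissue levels was chosen after seeing the data. Intervals are 95% and errors on fold changes are SE. The code was tested on simulated data.

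The members, gene lists and tests were chosen with earlier results of these data known. Subunits named are the 8 of smallest p per comparison of 2 groups, the 4 smallest for the averaged effect and the interaction, the 6 smallest per direction and all called for the striatal level, those at the edge of the filter, and a panel, of which 8 are given. Gabbr2 in the comparison with stress was added after its values were seen. Some subunits that these rules name are not reported here; counts over 42 subunits include them. Of the 4 lists of partner genes, the 2 of smallest p could be named. Drd1 and Slc17a7 were chosen after seeing the data. Exon lengths are from GENCODE vM21 and promoters from RefSeq. Python 3.11.15, pandas 2.3.3, numpy 2.4.6 and matplotlib 3.10.9 were used.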

Additional observations from a re-analysis of the deposited data

Results flagged for a closer look

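Within 148 sets of 1 subunit in 1 group, 19 held a library far from the rest by Dixon's criterion at 95%, which chance alone meets in about 1 of 20. GFP stress 13 gave 5 of them. It was lowest of its group in Gabra3, at 2913 normalized counts, Gabrb2, at 5226, Gria2, at 12245, and Grm8, at 347, and highest in Grik5, at 10437 (10436.5 before rounding). Its striatal level was 0.71, the highest of the 8 GFP stress libraries. It was also highest of them in markers of myelin (0.43), oligodendrocyte precursors (0.34), microglia (0.30) and astrocytes (0.16). The part of any of these in the far values was not tested.

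ZBTB7A control 6, whose striatal level of 1.98 was the highest of all, gave 6. It was lowest of its group in Gabra3, at 1754, Gabra5, at 736, Gria3, at 4723, and Grin2a, at 323 normalized counts, and highest in Grm4, at 1147, and Gabrg1, at 698.

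GFP control 1 was highest in Gabrq, at 127, Grik1, at 498, and Gria4, at 2786, and GFP stress 21 was highest in Gabrg1, at 536, and lowest in Grm3, at 1331. GFP control 10 was lowest in Gabra4, at 2099, ZBTB7A control 24 was lowest in Grin1, at 11414, and ZBTB7A stress 9 was highest in Gabra4, at 2976 normalized counts.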

How the results depend on the processing

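The count of 0 called subunits held in every alternative for 5 of the 6 contrasts. For stress under GFP, DESeq2 on recovered reads called 1, Gabrq, at a log2 fold change of -2.22 (adjusted p = 0.0358), where edgeR gave -2.28 (adjusted p = 0.214). DESeq2 called 81 genes of the whole table for the vector with stress and 39 for stress under GFP. The 15 subunits called with the striatal level became 0 without the 5 far libraries, 5 to 17 with 1 library left out, 21 at an adjusted p under 0.1 and 13 to 16 otherwise. Fewer libraries at the ends of the level remain in the first of these.

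With 3 tissue levels as covariates, signs turned for the vector without stress in Gabrq (0.026), Gabrr2 (0.14), Gabrg1 (0.068) and Grin3b (0.023), for the vector with stress in Gria4 (0.033), for stress under GFP in Gria4 (-0.042) and for the interaction in Grm2 (0.25). With the striatal level alone, Gria4 turned to 0.038 for the vector with stress and to -0.010 for stress under GFP. With 1 library left out, Gabrg1 ranged from -0.33 to 0.029 and Grin2c from -0.015 to 0.26 for the vector without stress, with GFP control 1 left out at the end that changed sign. The cause was not tested. Most contrast values were not called to begin with, so keeping their side of the threshold says little: with 3 tissue levels Gabrr2 was at -0.051 for stress under GFP, against -1.58 without them, and Grm2 at -0.026 for the vector with stress, against -0.85. No paired analysis was possible because no title number is shared between groups.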
